A study of Mus musculus with 6 samples.

Results

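The dual-specificity MAP kinase phosphatases are described here as 10 genes, *Dusp1*, *Dusp2*, *Dusp3*, *Dusp4*, *Dusp5*, *Dusp6*, *Dusp7*, *Dusp10*, *Dusp14* and *Dusp16*, taken by symbol from the 55335 genes of the table. All 10 were measured in all 6 libraries, and all 10 passed the filter on low values (a mean of 0.5 FPKM or more, reached by 13367 genes). FPKM count fragments per length of transcript relative to the library's total, so levels can be set side by side between genes. The study asked how neutrophils that carry or lack CD177, a surface protein of a neutrophil subset, act on macrophages after spinal cord injury (SCI). Bone marrow-derived macrophages (BMDMs) came from *Cd177* WT mice (the methods use male mice) and had been grown with 25 ng/ml M-CSF for 7 days. They were kept for 24 h together with neutrophils that had been isolated with magnetic beads from the injured spinal cord at 3 days post-injury (dpi). In 3 libraries the neutrophils were labelled *Cd177* WT and in 3 libraries *Cd177* KO, a deletion that those donor mice carry in all cells. In both groups the macrophages were sorted as Ly6G-negative cells before RNA extraction, Ly6G being a neutrophil antigen, the macrophages themselves were WT, and no library of BMDMs without neutrophils was analysed here. Neither the labels nor the methods say whether the 3 libraries of a group were separate cultures or donors, so the p-values measure the spread between these libraries only.

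MAP kinases (ERK, JNK and p38) are switched on by phosphate on a threonine and a tyrosine of their activation loop, and dual-specificity phosphatases remove phosphate from both residues. Many of these phosphatases are themselves induced by MAP kinase signalling and so act as negative feedback. In macrophages DUSP1 is the best known of them, induced by microbial stimuli and by glucocorticoids, and it limits p38 and JNK activity and with it the output of inflammatory cytokines. The members differ in where they sit and in what they act on: DUSP1, DUSP2, DUSP4 and DUSP5 are inducible nuclear enzymes, DUSP6 and DUSP7 are cytoplasmic enzymes directed at ERK, DUSP10 and DUSP16 prefer JNK and p38, and DUSP3 and DUSP14 are small atypical members without the kinase-binding domain of the others.

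*Cd177*, the gene deleted in the neutrophils of the KO group, had 0.544, 0.309 and 0.521 FPKM under the WT label and 1.79, 1.84 and 2.28 FPKM under the KO label. This ran against the labels. The sequenced BMDMs were *Cd177* WT in both groups. Most other neutrophil markers were higher under the KO label too: of 13 tested in limma, 11 rose, *Cd177* among them, and 1 fell. Which cells the *Cd177* transcript came from was not tested. The values therefore do not settle the genotype of the neutrophils, and every direction given here rests on the labels. The libraries correlated with each other at r = 0.967 to 0.985 within the WT label, at r = 0.977 to 0.984 within the KO label and at r = 0.905 to 0.917 between them (Pearson's r across genes of log2 values, genes not being independent replicates). The low values of the table imply about 17700000 to 20300000 fragments per library, although whole reads could not be recovered from it. Of the 13367 tested genes, 37.6% passed an adjusted p-value of 0.05 in limma, 27.1% as higher and 10.5% as lower under the KO label, and the median log2 fold change of all genes was 0.19. With median-of-ratios scaling, which brings that median to 0.00, 32.7% passed, 16.1% higher and 16.6% lower. Each fold change here is on the log2(FPKM + 0.5) scale, labelled KO minus labelled WT.

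Of the 10 phosphatases, 2 rose and 2 fell at an adjusted p-value under 0.05 in limma, and 6 did not pass. That is a share close to the background of 37.6%, with the falls above and the rises below their backgrounds of 10.5% and 27.1%, on counts too small to set the family apart. *Dusp7* and *Dusp6*, both cytoplasmic ERK phosphatases, were higher in the libraries labelled KO, and *Dusp4* and *Dusp5*, both nuclear, were lower. With median-of-ratios scaling the same 4 passed in the same directions, and *Dusp10* and *Dusp16* passed as lower. At the threshold of the study, a fold change above 2 with an unadjusted p-value under 0.05 (11.1% of the tested genes, 6.68% higher and 4.43% lower), *Dusp7* stayed higher and *Dusp4* lower. In 5 of the 10 members the groups were free of overlap, where this was the case for 51.9% of all tested genes. The median log2 fold change of the 10 members was -0.05. Neutrophil marker transcripts were higher under the KO label too, as given with the marker lists. In bulk RNA, fewer cells that carry a transcript and less of it per cell cannot be told apart.

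**Figure D1:**
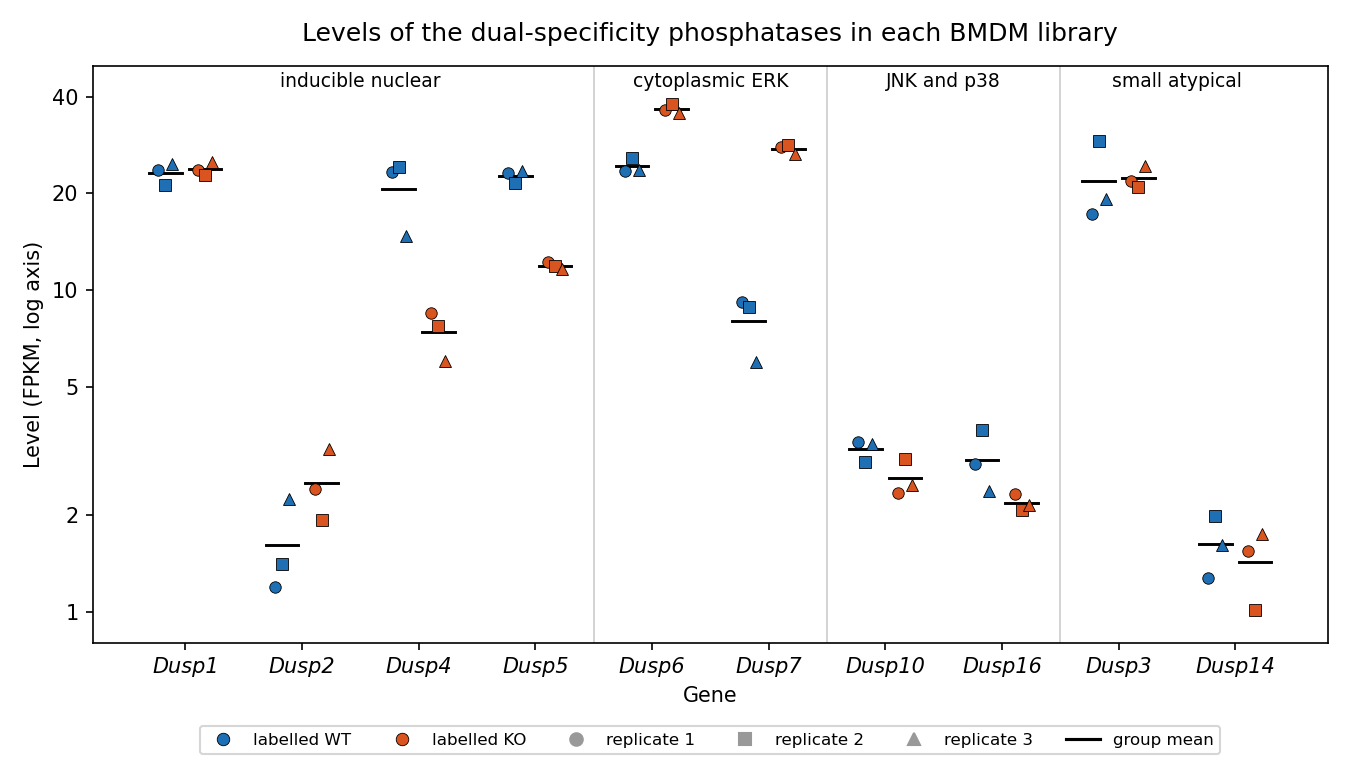
Level of each phosphatase in FPKM on a log axis, with 1 point per library (blue, labelled WT; orange, labelled KO; the marker shape gives the replicate number) and a black bar at the group mean, in 4 classes by role. *Dusp4* and *Dusp5* lie lower and *Dusp6* and *Dusp7* higher in every library labelled KO, while the points of *Dusp1* overlap.

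The order of the levels differed between the groups. In the libraries labelled WT, *Dusp6* (mean 24.3 FPKM), *Dusp1* (23.2), *Dusp5* (22.7), *Dusp3* (21.8) and *Dusp4* (20.7) led, each with a range over the libraries that overlapped its neighbour's. *Dusp7* followed apart from them at 7.997 FPKM, then *Dusp10* (3.21) and *Dusp16* (2.97), which overlapped each other, and last *Dusp14* and *Dusp2*, at 1.62 FPKM each, which overlapped too. In the libraries labelled KO, *Dusp6* (36.6 FPKM) lay above *Dusp7* (27.6), and *Dusp7* above *Dusp1* (23.9), with no overlap between these neighbours. *Dusp1* overlapped *Dusp3* (22.4 FPKM), and *Dusp5* (11.9) and *Dusp4* (7.41) then stood apart from each other and from *Dusp3*. *Dusp2* (2.52 FPKM) overlapped both *Dusp10* (2.61) and *Dusp16* (2.18), which did not overlap each other, and *Dusp14* was lowest at 1.43 FPKM. Among all tested genes, *Dusp7* stood at percentile 63.7 of level under the WT label and 87.7 under the KO label, and *Dusp4* at 83.7 and 59.1.

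Of the inducible nuclear enzymes, *Dusp1* and *Dusp5* are shown with the bases before their transcription start, because both hold motifs of stimulus-regulated factors, while *Dusp5* fell and *Dusp1* did not pass. The sequences are from RefSeq (GRCm38.p6), which held an entry for 9 of the 10 members, not for *Dusp4*. They cover those of the 250 bases before the start that carry no annotated exon, 5′ to 3′ on the strand of the gene. The stretch of *Dusp1* is chr17:26508520-26508722 on the minus strand and that of *Dusp5* chr19:53528895-53529108 on the plus strand. Capitals mark matches to the cAMP response element (CRE) TGACGTCA, to its shorter form TGACG, which the full element contains, and to the CArG box, the motif of serum response factor.
Dusp1: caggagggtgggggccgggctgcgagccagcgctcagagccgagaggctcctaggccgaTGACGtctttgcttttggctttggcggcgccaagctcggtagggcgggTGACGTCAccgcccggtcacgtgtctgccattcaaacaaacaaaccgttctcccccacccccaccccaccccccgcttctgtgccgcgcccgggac
Dusp5: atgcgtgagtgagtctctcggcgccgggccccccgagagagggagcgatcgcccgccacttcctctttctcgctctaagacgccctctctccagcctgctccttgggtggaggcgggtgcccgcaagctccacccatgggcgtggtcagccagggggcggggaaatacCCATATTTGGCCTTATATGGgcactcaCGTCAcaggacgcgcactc
Among the 9 members searched the full CRE was found only in *Dusp1*, 143 to 136 bases before the start, and in 1.55% of all 32851 RefSeq promoters over the same 250 bases, searching both strands. The short form was in *Dusp1*, *Dusp5* and *Dusp16* and in 17.8% of all promoters. *Dusp5* held 2 CArG boxes side by side, from 82 to 73 and from 72 to 63 bases before the start, a motif present in 1.47% of all promoters and in none of the other 8 members searched. None of the 9 held an AP-1 motif (TGANTCA, 6.75% of all promoters), a TATA box (TATAAA, 12.4%), an NF-kB site (3.90%) or the core of an interferon-stimulated response element (2.98%) in this window. A match is a run of letters and not a bound site.

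*Dusp1*, on chromosome 17 from 26505590 to 26562128 (GENCODE M21, GRCm38, minus strand), had 23.7, 21.2 and 24.7 FPKM under the WT label and 23.7, 22.8 and 25.0 FPKM under the KO label. The groups overlapped throughout, and the means were 23.2 ± 1.79 and 23.9 ± 1.11 FPKM (SD, n = 3 each). The log2 fold change was 0.04 (SE 0.09, 95% interval -0.17 to 0.26, adjusted p = 0.744 in limma), so a change within these bounds could not be told from none. Its sign was not stable, since with median-of-ratios scaling it was -0.17 and with upper-quartile scaling -0.04. Annotated exons of *Dusp1* and *Ergic1* share 11 bases on opposite strands.

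*Dusp5*, which dephosphorylates ERK in the nucleus and is induced by ERK signalling, lies on chromosome 19 from 53529109 to 53542431. It had 23.1, 21.5 and 23.6 FPKM under the WT label and 12.2, 11.9 and 11.6 FPKM under the KO label. All 3 libraries labelled KO lay below all 3 labelled WT, and within each label the values were close together, the SE being the smallest of the 4 that passed together with that of *Dusp6*. The means were 22.7 ± 1.09 and 11.9 ± 0.296 FPKM (SD, n = 3 each), a ratio of 1.91 in favour of the WT label. The log2 fold change was -0.90 (SE 0.08, 95% interval -1.09 to -0.72, adjusted p = 0.000258 in limma), or -1.09 relative to the median of all genes. An antisense transcript, AC137853.2, shares 547 exonic bases with *Dusp5* and had at most 0.284 FPKM in any library.

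*Dusp4*, an ERK- and JNK-directed nuclear phosphatase on chromosome 8 from 34807297 to 34819894, had 23.3, 24.2 and 14.7 FPKM under the WT label and 8.46, 7.76 and 6.02 FPKM under the KO label. Replicate 3 was the lowest library under either label, and the groups still did not overlap. The means were 20.7 ± 5.21 and 7.41 ± 1.26 FPKM (SD, n = 3 each), a ratio of 2.79 in favour of the WT label, and the log2 fold change was -1.40 (SE 0.21, 95% interval -1.91 to -0.89, adjusted p = 0.00278 in limma). This was the largest fall among the members. *Dusp4* and *Dusp5* stood at nearly equal levels in 2 libraries labelled WT (a ratio of *Dusp5* to *Dusp4* of 0.992 and 0.889) and at 1.60 in the third, against 1.44, 1.53 and 1.93 in the libraries labelled KO, a ratio chosen after the values were seen.

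*Dusp2*, a nuclear phosphatase of activated leukocytes on chromosome 2 from 127336159 to 127338376, was scarce, with 1.20, 1.41 and 2.24 FPKM under the WT label and 2.41, 1.93 and 3.22 FPKM under the KO label. The highest library labelled WT lay above the lowest labelled KO. The log2 fold change of 0.52 (SE 0.23, 95% interval -0.03 to 1.07) did not pass in limma (adjusted p = 0.122). Without WT replicate 3 the log2 fold change was 0.72 with an adjusted p-value of 0.0297 in limma. The table implies about 37 to 96 fragments per library for *Dusp2*, an approximate range, since whole reads could not be recovered from it.

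The cytoplasmic ERK phosphatases *Dusp6* and *Dusp7* are shown with the bases before their start because they were the members that rose. The stretch of *Dusp6* is chr10:99262981-99263230 and that of *Dusp7* chr9:106368382-106368631 (RefSeq, GRCm38.p6, both on the plus strand). Capitals mark the ETS core CGGAAG and the CCAAT box CCAAT, each read on either strand.
Dusp6: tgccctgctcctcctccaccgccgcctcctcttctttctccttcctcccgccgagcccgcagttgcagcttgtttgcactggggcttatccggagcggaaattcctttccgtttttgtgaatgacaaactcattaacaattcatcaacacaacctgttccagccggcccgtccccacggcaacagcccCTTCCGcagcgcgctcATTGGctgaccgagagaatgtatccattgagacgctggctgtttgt
Dusp7: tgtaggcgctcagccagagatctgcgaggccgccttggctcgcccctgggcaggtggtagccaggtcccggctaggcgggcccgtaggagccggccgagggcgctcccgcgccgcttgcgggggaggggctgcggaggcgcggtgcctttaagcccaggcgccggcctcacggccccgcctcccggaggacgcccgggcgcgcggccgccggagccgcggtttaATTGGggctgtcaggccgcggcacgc
The ETS core in these letters, a motif of a family of factors of which ERK phosphorylates some, was found in *Dusp6* and *Dusp14*. In *Dusp6* it lay 62 to 57 bases before the start, and 13.6% of all promoters held it. *Dusp7* did not hold these letters in this window. A CCAAT box stood 46 to 42 bases before the start of *Dusp6* and 26 to 22 bases before that of *Dusp7*, in 5 of the 9 members searched and in 33.8% of all promoters. *Dusp7* had a GC content of 77.2% in these bases and *Dusp6* one of 56.4%, where the median of all promoters was 52.4%.

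*Dusp7*, on chromosome 9 from 106368632 to 106375724, changed the most among the members. It had 9.17, 8.86 and 5.97 FPKM under the WT label and 27.9, 28.3 and 26.5 FPKM under the KO label. Every library labelled KO had more than 2-fold the level of every library labelled WT, and replicate 3 was again the lowest under both labels. The means were 7.997 ± 1.76 and 27.6 ± 0.914 FPKM (SD, n = 3 each), a ratio of 3.45, and the log2 fold change was 1.75 (SE 0.16, 95% interval 1.36 to 2.13, adjusted p = 0.000326 in limma). With median-of-ratios scaling it was 1.54.

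*Dusp6*, the classical ERK feedback phosphatase, on chromosome 10 from 99263231 to 99267489, had the highest mean of the members under both labels. It had 23.5, 25.8 and 23.6 FPKM under the WT label and 36.4, 38.02 and 35.5 FPKM under the KO label. The groups were well apart relative to their spread, with means of 24.3 ± 1.30 and 36.6 ± 1.28 FPKM (SD, n = 3 each). The log2 fold change was 0.58 (SE 0.08, 95% interval 0.39 to 0.77, adjusted p = 0.00170 in limma), or 0.39 relative to the median of all genes. The ratio of *Dusp7* to *Dusp6* was 0.389, 0.343 and 0.253 in the libraries labelled WT and 0.767, 0.744 and 0.748 in those labelled KO, a ratio also chosen after the values were seen.

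**Figure D2:**
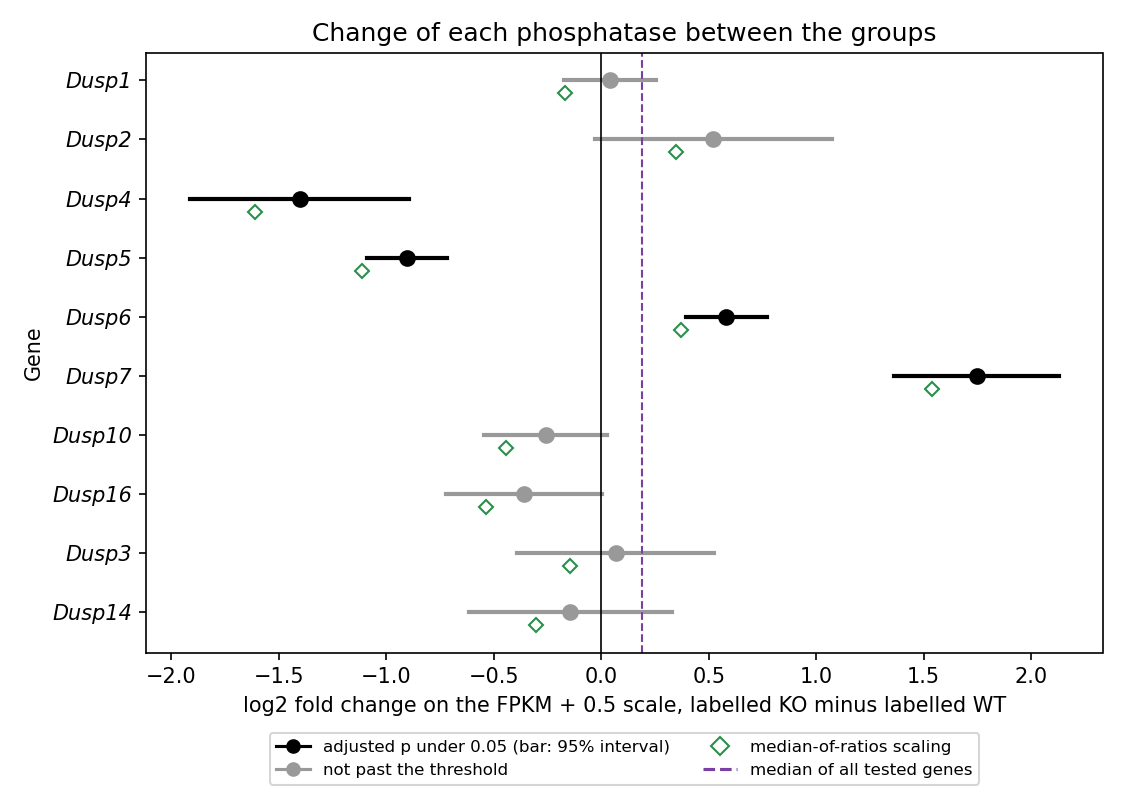
Log2 fold change of each phosphatase on the FPKM + 0.5 scale, labelled KO minus labelled WT, with its 95% interval from limma (black, adjusted p-value under 0.05; grey, not past it). Open green diamonds give the value with median-of-ratios scaling and the dashed line the median of all tested genes (0.19). *Dusp4*, *Dusp5*, *Dusp6* and *Dusp7* have intervals clear of 0, and each diamond lies to the left of its point.

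The JNK- and p38-directed members were scarce and did not pass as deposited. *Dusp10*, on chromosome 1 from 184013302 to 184075636, had 3.38, 2.92 and 3.31 FPKM under the WT label and 2.35, 2.99 and 2.48 FPKM under the KO label, with overlap (log2 fold change -0.26, SE 0.12, 95% interval -0.54 to 0.03, adjusted p = 0.136 in limma). *Dusp16*, on chromosome 6 from 134715468 to 134792625, had 2.87, 3.67 and 2.37 FPKM against 2.32, 2.08 and 2.14 FPKM, with all libraries labelled KO below all labelled WT (log2 fold change -0.36, SE 0.15, 95% interval -0.72 to 0.01, adjusted p = 0.110 in limma). The gap between the groups of *Dusp16*, from 2.37 to 2.32 FPKM, was small beside the spread within the WT label. With median-of-ratios scaling both passed in limma, *Dusp10* at -0.44 (adjusted p = 0.0303) and *Dusp16* at -0.54 (adjusted p = 0.0321). Without WT replicate 3, *Dusp16* passed as deposited too, at -0.49 (adjusted p = 0.0260 in limma).

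Neither small atypical member passed. *Dusp3*, a phosphatase of ERK and JNK on chromosome 11 from 101971143 to 101987013, had 17.2, 29.0 and 19.2 FPKM under the WT label and 21.9, 20.9 and 24.3 FPKM under the KO label. The libraries labelled WT included both the lowest and the highest value. The log2 fold change was 0.07 (SE 0.19, 95% interval -0.39 to 0.52, adjusted p = 0.811 in limma) and turned negative with median-of-ratios scaling (-0.14) and with upper-quartile scaling (-0.02). *Dusp14*, on the same chromosome from 84048041 to 84069261, had 1.27, 1.98 and 1.62 FPKM against 1.54, 1.011 and 1.74 FPKM (log2 fold change -0.14, SE 0.20, 95% interval -0.61 to 0.33, adjusted p = 0.604 in limma), with groups that overlapped. An antisense gene, Gm20659, shares 604 exonic bases with *Dusp3* and was listed at 0 FPKM in all 6 libraries.

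The summed level of the 10 members was 128.7, 140.5 and 121.3 FPKM under the WT label and 139.1, 137.7 and 138.6 FPKM under the KO label, with overlap. Within that sum the make-up differed. The inducible nuclear enzymes made up 55.3%, 48.6% and 53.8% of it in the libraries labelled WT and 33.6%, 32.2% and 33.1% in those labelled KO, and the cytoplasmic ERK enzymes 25.4%, 24.7% and 24.4% against 46.2%, 48.2% and 44.8%. The ratio of the cytoplasmic ERK class to the inducible nuclear class was 0.459, 0.508 and 0.454 under the WT label and 1.37, 1.49 and 1.35 under the KO label, so the nuclear class was the larger in all 3 libraries labelled WT and the cytoplasmic class in all 3 labelled KO. Such a ratio within a library does not depend on the scaling between libraries. The JNK- and p38-directed members took 4.69% to 4.86% of the sum under the WT label and 3.34% to 3.68% under the KO label, and the small atypical members ranged from 14.4% to 22.1% and from 15.9% to 18.8%, with overlap. These shares are given as a description without a test. Within the sum *Dusp7* went from a mean of 6.12% to 19.9% and *Dusp4* from 15.8% to 5.35%. Of the inducible nuclear class only *Dusp4* and *Dusp5* had lower mean FPKM under the KO label. *Dusp1* went from 23.2 to 23.9 FPKM and *Dusp2* from 1.62 to 2.52 FPKM, and neither passed in limma.

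**Figure D3:**
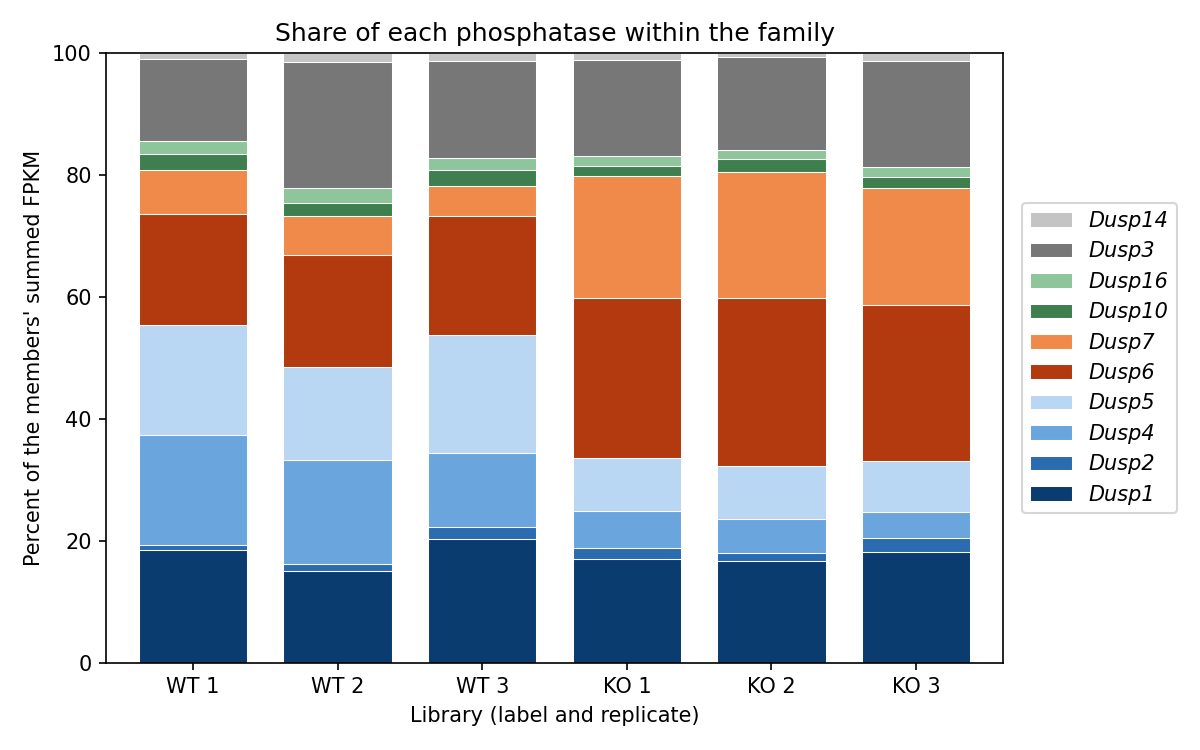
Percent of the summed FPKM of the 10 phosphatases that each member takes, stacked to 100% for each library (blues, inducible nuclear; oranges, cytoplasmic ERK; greens, JNK and p38; greys, small atypical). The blue block takes 48.6% to 55.3% in the libraries labelled WT and 32.2% to 33.6% in those labelled KO, and the orange block 24.4% to 25.4% and 44.8% to 48.2%.

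The genes most like *Dusp7* over the 6 libraries, among 6834 others with a mean of at least 5 FPKM, were *Pygb*, a glycogen phosphorylase, *Rcan3* and *Lmbrd2* (Pearson's r of log2 values 0.9997, 0.9994 and 0.9994). For *Dusp4* they were *Atp2a2*, a calcium pump of the endoplasmic reticulum, *Cybb*, the catalytic subunit of the phagocyte NADPH oxidase, and *Atp6ap1*, an accessory subunit of the proton pump (0.9996, 0.9981 and 0.9971). With 2 groups of 3 libraries such values are common: 818 genes had r above 0.95 with *Dusp7* and 278 with *Dusp4*. The 6 points share the split by label and the scaling of their libraries.

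Of the 13 MAP kinase genes on which these enzymes or their relatives act, 9 were tested, 1 rose and 1 fell in limma, and their median was 0.15 on the log2 scale. *Mapk3*, which encodes ERK1, rose from 66.6 ± 5.46 to 104.8 ± 10.1 FPKM (SD, n = 3 each), which is 0.65 on the log2 scale (adjusted p = 0.00336 in limma). *Mapk6*, an atypical MAP kinase, fell from 23.3 ± 1.48 to 15.95 ± 0.682 FPKM (log2 fold change -0.53, adjusted p = 0.00336 in limma). *Mapk8* (JNK1) had a log2 fold change of 0.10 and *Mapk9* (JNK2) of -0.04, and neither passed. *Mapk14* (p38 alpha) stood at 19.2, 8.24 and 3.70 FPKM under the WT label, against 10.3 to 11.9 FPKM under the KO label, and with that spread its log2 fold change of 0.40 did not pass (adjusted p = 0.564 in limma).

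Upstream of them, all 7 MAP kinase kinases were tested, of which 1 rose and 3 fell in limma (median -0.20). *Map2k1* (MEK1), a kinase that activates ERK, fell from 90.7 ± 0.910 to 45.5 ± 1.95 FPKM (SD, n = 3 each). That is -0.99 on the log2 scale (adjusted p = 0.000123 in limma). *Map2k2* (MEK2), which also activates ERK and is named after its values were seen, did not pass. It had a log2 fold change of -0.20 (adjusted p = 0.251 in limma). *Map2k4*, a JNK-pathway kinase, and *Map2k3*, a p38-pathway kinase, fell by 0.45 and 0.42 on the log2 scale. *Map2k6* had 0.222 to 0.445 FPKM under the WT label, below the filter of 0.5 FPKM, and 0.672 to 0.822 FPKM under the KO label (log2 fold change 0.54, adjusted p = 0.0388 in limma). Its call held in 2 of 14 alternative fits and was lost with each scaling and with any 1 library left out. At the MAP3K level 8 of 19 genes rose and 1 fell (median 0.35), with the largest changes in *Map3k5* (the stress kinase ASK1, 1.03), *Map3k14* (the NF-kB-inducing kinase, 0.87), *Map3k3* (0.83) and *Map3k6* (0.62). With median-of-ratios scaling 2 of the 19 rose, and *Map3k3* and *Map3k6* no longer passed. The count also fell with 1 library left out, to 2 without KO replicate 1 or KO replicate 2, 3 without WT replicate 1, 4 without KO replicate 3 and 5 without WT replicate 2. The lower call was lost in each of these fits, and also with no filter on low values, where 3 genes rose.

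Downstream, 5 of 13 MAP kinase-activated kinases and TTP family genes rose and 1 fell (median 0.22). The TTP family binds AU-rich elements and speeds the decay of cytokine mRNAs. *Zfp36l1* rose from 26.9 ± 1.77 to 58.6 ± 0.459 FPKM (SD, n = 3 each, log2 fold change 1.11), and *Zfp36l2* by a log2 fold change of 0.52. *Zfp36*, which encodes TTP and is named after its values were seen, was the 1 that fell. Its mean went from 38.3 ± 0.702 to 31.7 ± 1.66 FPKM (SD, n = 3 each, log2 fold change -0.27, adjusted p = 0.0327 in limma). *Rps6ka1*, an ERK-activated ribosomal S6 kinase, rose from 12.8 ± 2.06 to 26.9 ± 2.64 FPKM (SD, n = 3 each, log2 fold change 1.05), and *Rps6ka5* rose by 0.53, a call lost with median-of-ratios scaling, where 3 genes rose and 2 fell. *Rps6ka5* had a mean of 0.478 FPKM under the WT label, below the filter of 0.5 FPKM, which it passed through the libraries labelled KO. Without KO replicate 1 or KO replicate 2, 3 of the list rose, and the lower call was lost without either of these or WT replicate 1 or WT replicate 2.

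ERK feedback inhibitors and ERK-inducible factors moved both ways. Of 24 genes, 23 were tested, 5 rose (8 without WT replicate 3) and 8 fell in limma, with a median of -0.11. *Egr1*, an immediate early factor, rose from 3.27 ± 0.554 to 11.8 ± 1.33 FPKM, *Spry1*, a feedback inhibitor of the pathway, from 0.699 ± 0.219 to 3.36 ± 0.062 FPKM, and *Etv5*, an ETS factor, from 8.64 ± 1.26 to 23.01 ± 2.38 FPKM (SD, n = 3 each). The other *Spry* genes of the list, named after their values were seen, fell. *Spry2* had a log2 fold change of -0.53 (adjusted p = 0.00833 in limma) and *Spry4* of -0.74 (adjusted p = 0.00784 in limma). *Ier3*, another immediate early gene, fell from 186.3 ± 31.5 to 52.7 ± 3.504 FPKM (SD, n = 3 each, log2 fold change -1.80, adjusted p = 0.000114 in limma). Of 12 genes inducible by glucocorticoid or cAMP, which can also induce *Dusp1*, 10 were tested, 1 rose, 6 fell and 3 did not pass in limma, with a median of -0.69. *Sgk1*, a serum- and glucocorticoid-induced kinase, fell from 161.0 ± 11.9 to 27.7 ± 1.51 FPKM (SD, n = 3 each), *Crem*, a cAMP-responsive factor, by 1.37 and *Pde4d*, a cAMP phosphodiesterase, by 1.05 on the log2 scale, while *Tsc22d3*, the glucocorticoid-induced leucine zipper, rose by a log2 fold change of 1.13. The glucocorticoid-induced genes *Fkbp5*, *Per1* and *Klf9*, named after their values were seen, had log2 fold changes of -0.0025, -0.33 and 0.07 and did not pass. *Per1* did pass as lower in 5 of 14 alternative fits, among them median-of-ratios scaling (-0.53, adjusted p = 0.0109 in limma). *Fkbp5* and *Klf9* passed in 0 of 14.

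Of 18 other dual-specificity phosphatases, most of which are not typical MAP kinase phosphatases, 13 were tested, 3 rose and 2 fell in limma, with a median of 0.02. With median-of-ratios scaling 2 rose and 3 fell, with a median of -0.17. The rise of *Ssh3*, named after its values were seen, was 0.40 on the log2 scale (adjusted p = 0.0438 in limma). Its call held in 4 of 14 alternative fits and was lost with each scaling and with any 1 library left out. *Ssh2*, a cofilin phosphatase, rose from 1.28 ± 0.396 to 4.88 ± 0.752 FPKM and *Dusp22* from 1.49 ± 0.204 to 4.09 ± 0.432 FPKM, while *Dusp28* fell from 12.3 ± 2.16 to 5.48 ± 0.943 FPKM and *Dusp13* from 1.23 ± 0.089 to 0.435 ± 0.055 FPKM (SD, n = 3 each). The mean of *Dusp13* under the KO label lay below the filter of 0.5 FPKM, which it passed through the libraries labelled WT. The remaining MAP kinase phosphatases of the family, *Dusp8* and *Dusp9*, named here after their values were seen, stood at 1.31 to 1.57 FPKM on average and had log2 fold changes of -0.06 and -0.02 that did not pass.

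**Figure D4:**
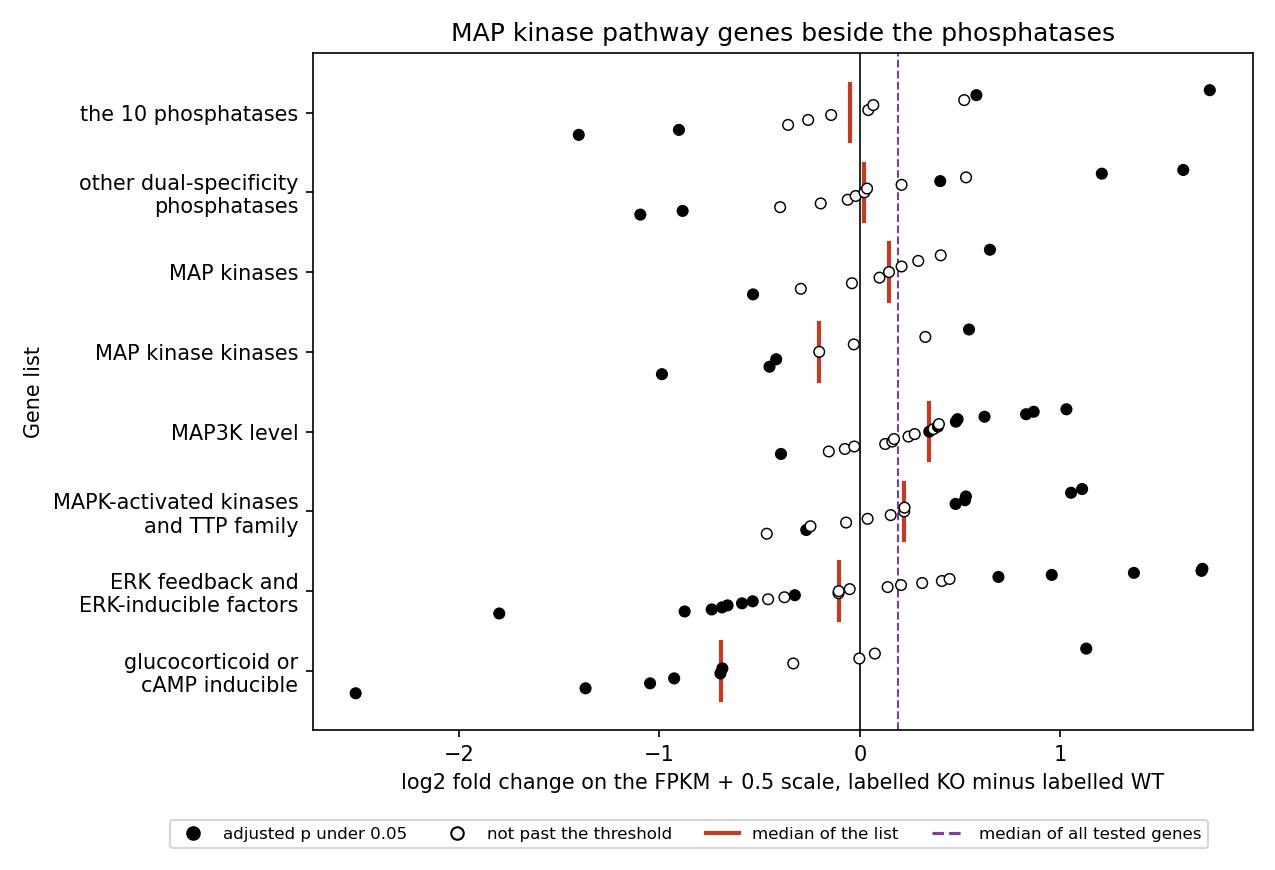
Log2 fold change on the FPKM + 0.5 scale, labelled KO minus labelled WT, of each tested gene in the phosphatase family and in 7 lists of pathway genes (filled, adjusted p-value under 0.05 in limma; open, not past it). Red bars give the list medians, from -0.69 for glucocorticoid- or cAMP-inducible genes to 0.35 at the MAP3K level, and the dashed line the median of all tested genes (0.19).

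Markers of other cells moved with the same split. The 12 macrophage markers had summed levels of 6857 to 8210 FPKM under the WT label and 7642 to 8337 FPKM under the KO label. *Csf1r* had 232 to 284 and 268 to 293 FPKM, *Adgre1* 218 to 256 and 279 to 309 FPKM, and *Lyz2* led the list at 4462 to 5732 and 5881 to 6588 FPKM. Of the 12 markers 3 rose and 2 fell in limma, and with median-of-ratios scaling 1 rose and 3 fell. The members that moved most, named after their values were seen, went both ways. *Cd14*, the lipopolysaccharide co-receptor, had 911 to 1182 FPKM under the WT label and 93.7 to 109 FPKM under the KO label (log2 fold change -3.33, adjusted p = 6.82e-06 in limma). *Fcgr1*, the high-affinity IgG receptor, had 118 to 123 and 33.0 to 34.3 FPKM (-1.83), and *Mrc1*, the mannose receptor, 26.3 to 29.4 and 213 to 225 FPKM (2.96). Of 19 neutrophil markers 13 were tested, 11 rose and 1 fell, and their summed level was 203 to 263 FPKM under the WT label and 559 to 575 FPKM under the KO label. Among those that rose, *Cxcr2*, *Cebpe* and *Cd177* had means of 0.382, 0.314 and 0.458 FPKM under the WT label, below the filter of 0.5 FPKM. They were tested only through their level under the KO label, so their part in the count is not independent of it. *S100a9*, the most abundant, had 75.9 to 113 and 221 to 244 FPKM, and *Ly6g*, the antigen of the sort, was listed at 0 FPKM in all libraries labelled WT and had 0.403 to 0.660 FPKM in those labelled KO. Both tested B cell markers of 6 rose, with sums of 0.711 to 1.35 and 13.1 to 15.4 FPKM, in the libraries labelled KO mostly *Ighm*. With a mean of 0.247 FPKM under the WT label, *Ighm* too passed the filter only through the libraries labelled KO. The 1 tested T cell marker of 6, *Cd4*, rose, with list sums of 1.81 to 2.35 and 5.55 to 7.10 FPKM, and *Cd3e* had at most 0.0321 FPKM. Their part in the changes of the phosphatases was not tested.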

How the data were processed

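RNA-seq values of 6 libraries of BMDMs were analysed, 3 labelled WT and 3 labelled KO. For each gene the authors deposited 1 FPKM value per library and no counts. The submitters' processing notes name fastp 0.17.1, HISAT2 2.1.0, DESeq2 1.18.1 and R 3.4.3, and the genome build, annotation and quantifier are not given in the sources used here. The labels and the methods name different extraction reagents, library kits and sequencers. FPKM divides by the total of a library, so a change in abundant genes shifts all others. Symbols and positions came from GENCODE M21 (GRCm38), which held 55154 of the 55335 identifiers, and promoters from RefSeq. The low values were checked for whole fragments: 37.3% to 40.5% lay within 0.1 of a whole multiple of the step, so reads were not recovered and the DESeq2 test of the study could not be used.

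The test was that of limma 3.58.1 (R 4.3.3; lmFit and trended eBayes, two-sided) on log2(FPKM + 0.5), across the 13367 genes whose mean reached 0.5 FPKM, with Benjamini-Hochberg adjustment over all of them, after the script was tested on simulated data. A permutation of 3 libraries against 3 gives no exact p-value under 0.1. The rest was done in Python 3.11.15 (numpy 2.4.6, pandas 2.3.3, matplotlib 3.10.9). The members and lists were chosen with earlier results of these data known. Named genes were the members, *Cd177*, up to 4 genes per pathway list with the largest absolute log2 fold change among those that passed, *Mapk3*, *Mapk8*, *Mapk9* and *Mapk14*, the defining markers, the most abundant gene of each marker list, and the 3 genes most correlated with the member of the largest rise and with that of the largest fall. Alternatives were other pseudocounts, filters, scalings, thresholds and variance estimates, a replicate block, a permutation test and each library left out. Some genes of the lists are not reported here.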

Additional observations from a re-analysis of the deposited data

How the results depend on the processing

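The 4 calls among the phosphatases kept their direction and an adjusted p-value under 0.05 in limma in every alternative fit, with log2 fold changes of -1.63 to -1.27 for *Dusp4*, -1.11 to -0.88 for *Dusp5*, 0.37 to 0.62 for *Dusp6* and 1.54 to 1.85 for *Dusp7*. At the threshold of the study 1 member was higher and 1 lower, since *Dusp5* and *Dusp6* changed by less than 2-fold, and 893 genes were higher and 592 lower. With median-of-ratios scaling 4 members were lower, and 2156 genes were higher and 2215 lower (49.3% of called genes higher, against 72.0% as deposited). With quantile normalization 4 members were lower as well, *Dusp10* at -0.50 and *Dusp16* at -0.60 (55.7% of called genes higher). Upper-quartile scaling gave 63.6%. The cause was not tested. At an adjusted p-value under 0.01 in limma, 2007 genes were higher and 922 lower, and among genes that averaged 5 FPKM or more, where fewer genes were tested, 1756 were higher. Signs turned in members that did not pass: *Dusp1* had -0.17 with median-of-ratios and -0.044 with upper-quartile scaling, and *Dusp3* -0.14 and -0.019. With a library left out, *Dusp1* ranged from -0.019 to 0.088, *Dusp3* from -0.081 to 0.29 and *Dusp14* from -0.27 to 0.024. The genes called then ranged from 2442 to 4228 higher and from 1047 to 1717 lower. In an exact permutation test over the 6 libraries, *Dusp4*, *Dusp5*, *Dusp6*, *Dusp7* and *Dusp16* reached 0.1, the smallest p-value it allows, and the others 0.2 to 0.8. FPKM give no depth for each value, and 3 libraries per group limit the intervals.

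Same-numbered libraries of the groups deviated together with r = 0.12, 0.04 and 0.26, and 2 of 6 correlated best with their own number, so the numbers were not taken as pairs. With the replicate number as a block, 5934 genes passed in limma (5027 without it, 4877 in both), 3 members were higher and 2 lower, and *Dusp2* passed at 0.52 (adjusted p = 0.0291 in limma).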
